A study of Mus musculus with 15 samples.

Results

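Cholangiocytes are the epithelial cells that line the bile ducts, and in chronic liver injury duct-like cells multiply around the portal tracts, which is called a ductular reaction. Levels of 8 genes known from these cells were followed in mouse liver, chosen by symbol: the keratins Krt19, Krt7 and Krt23, the adhesion molecule Epcam, the transcription factor Sox9, the chloride channel Cftr, and the surface proteins Cd24a and Prom1. They are 8 of the 24499 genes of the count tables, and all 8 were among the 14778 genes that passed a filter on low counts. That filter is met by a level of 10 counts in a library of median size, 0.762 CPM (counts scaled to the size of the library), in as little as 1 library. Krt19, Epcam, Sox9, Cd24a and Prom1 reached it in all 15 libraries, Krt7 in 13, Krt23 in 8 and Cftr in 5.

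Messenger RNA of the liver was sequenced in adult male C57BL/6 mice, in a model of acute injury by alcohol on top of chronic injury. Carbon tetrachloride (CCl4), a solvent that liver enzymes turn into a toxic radical, was injected into the abdomen at 0.2 ml/kg 2 times a week for 6 weeks. Ethanol then ran into the stomach through a tube, at up to 25 g/kg per day for 3 weeks, with or without CCl4 at 0.5 of the first dose. Both CCl4 arms of day 20, with chow and with ethanol, are labelled as receiving CCl4 in this second phase too. Arms without CCl4 carry the name OO in the labels, with no explanation, and keep it here. Ethanol arms are labelled with a high-fat diet (HFD) and the others with chow, so ethanol and diet cannot be told apart. At day 0 there were libraries 1 and 2 of OO and libraries 3 and 4 of CCl4. Day 20 had library 12 of OO with chow, libraries 13, 14 and 15 of OO with ethanol, libraries 16 and 17 of CCl4 with chow, and libraries 18, 19 and 20 of CCl4 with ethanol. From a different substudy in the labels came OO with chow (5) and OO with ethanol (6) at day 23. The labels of the day 20 OO arms repeat OO for the second phase, and those of day 23 do not. Libraries 5 and 6 thus differ from library 12 in day, substudy and this label. Nothing in the labels says that the libraries of a group come from separate animals, so the p-values reflect only how these libraries vary, which may be technical.

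In the bile duct, KRT7 and KRT19 build the cytoskeleton of the lining cells, and CFTR releases the chloride that draws water into bile after the hormone secretin. SOX9 is a transcription factor of the developing bile duct, while EPCAM and CD24 sit on the surface of duct cells and of progenitor-like cells. PROM1 (CD133) is a membrane protein of cell protrusions that is used as a marker of progenitor-like cells in injured liver. None of these genes belongs to duct cells alone: keratins are also made by mesothelium, CD24 by blood cells, and SOX9 and PROM1 by several epithelia. In whole liver, more duct cells and more RNA per duct cell cannot be told apart.

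Gene counts per library ran from 10347844 to 28843258, and the libraries of each group with replicates differed beyond counting noise. Libraries 6 and 12 stood apart: the summed level of 22 acinar genes of the exocrine pancreas was 213 and 212 CPM there and 6.31 to 14.6 CPM in the other libraries. Of these 22 genes, 1 was at 0 in each of libraries 6 and 12, and 9 to 19 in the others. Defining hepatocyte genes such as Alb were present throughout, with a summed level over 9 genes of 76290 to 113400 CPM.

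For the 3 genes that were higher in CCl4 livers under ethanol in the comparison given further on, bases before an annotated start are shown for orientation. They come from RefSeq promoters on GRCm38.p6, in which 5 of the 8 genes had an entry. Each is 150 bases ending just before an annotated start, 5′ to 3′ on the gene's strand, with matches to the GC box GGGCGG on either strand in capitals. For Prom1 the window is that of the inner of its annotated starts, on the minus strand at chr5:44094769-44094918. This window lies inside the gene, which spans chr5:43993620-44102032. Whether transcription begins at that inner start in these livers was not tested, so the window may not be a promoter in use. Cftr is on the plus strand at chr6:18170537-18170686, and Epcam on the plus strand at chr17:87635829-87635978. None of these 3 windows overlaps an exon of GENCODE M21.
Prom1: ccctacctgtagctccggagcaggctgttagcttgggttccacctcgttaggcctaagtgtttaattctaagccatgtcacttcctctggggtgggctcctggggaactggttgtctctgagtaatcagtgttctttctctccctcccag
Cftr: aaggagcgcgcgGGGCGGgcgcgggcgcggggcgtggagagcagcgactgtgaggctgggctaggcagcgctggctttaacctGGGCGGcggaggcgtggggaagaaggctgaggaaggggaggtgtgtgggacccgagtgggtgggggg
Epcam: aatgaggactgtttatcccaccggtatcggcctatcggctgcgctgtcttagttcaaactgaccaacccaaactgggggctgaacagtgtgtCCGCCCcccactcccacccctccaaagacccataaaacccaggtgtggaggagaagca

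The Cftr window held the GC box at 138 and 67 bases before the start and was 73.3% G or C. Epcam held it on the opposite strand at 58 bases before the start, with 56.0% G or C. The Prom1 window had 53.3% G or C and none of the letters searched. The window of the outer Prom1 start, at chr5:44101737-44101886, overlaps exons of the annotation and is not printed. It was 63.3% G or C and held the GC box at 62 and the RBPJ letters at 116 bases before that start. GGGCGG occurred in 28.6% of 32851 promoters of the same length, whose median G or C content was 54%. Searched on both strands as well were TATAAA, the TEAD letters CATTCC, the RBPJ letters TTCCCA and the SOX letters ACAATG, and none was in the 3 windows printed.

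All 8 genes were low in whole liver. Median levels over the 15 libraries ran from 0.531 CPM for Cftr to 5.01 CPM for Cd24a. This placed them between rank 9867 and rank 13623 of the 24499 genes of the count tables. Per kilobase of exon, median levels were highest for Cd24a (1.94 CPM per kb) and Krt19 (1.53), followed by Sox9 (0.998), Epcam (0.799), Prom1 (0.693), Krt23 (0.498), Krt7 (0.188) and Cftr (0.0684). In CCl4 livers with ethanol the order changed, with Prom1 at a mean of 8.66 CPM per kb above Cd24a at 3.56 CPM per kb. Prom1 varied most, 65.4-fold between its lowest and its highest library, against 5.55-fold to 8.80-fold for Epcam, Krt7, Cd24a, Krt19 and Sox9. Cftr and Krt23 each had no counts in library 15.

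**Figure D1:**
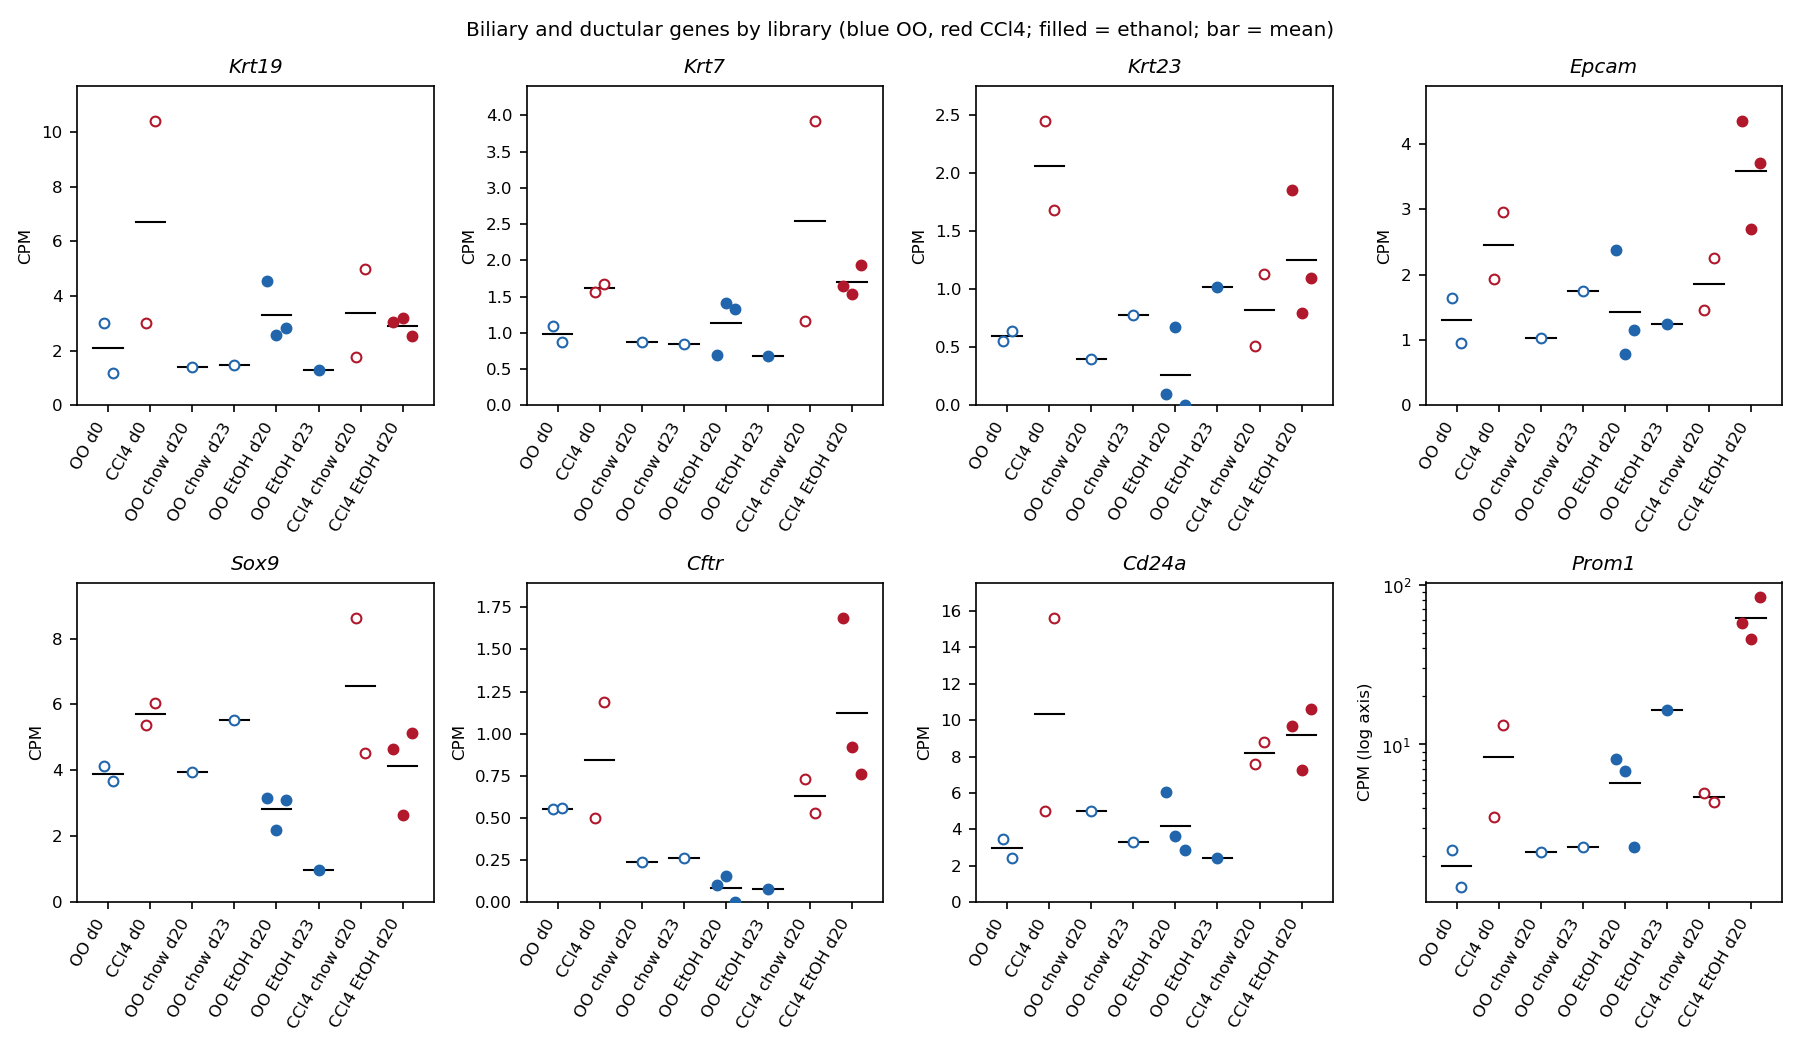
TMM-normalised CPM of each of the 8 genes (vertical axis, on a log scale for Prom1 only) in the 15 libraries, by group (horizontal axis). Points are libraries and bars are group means. Prom1 is at 45.7 CPM or more in the 3 libraries of CCl4 with ethanol and at or below 16.4 CPM in the 12 others, and Krt19 is highest in 1 CCl4 library of day 0.

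Prom1 was the gene with the widest differences, and its level was highest where CCl4 and ethanol were combined. In CCl4 livers with ethanol its levels were 57.2, 45.7 and 83.6 CPM. Under CCl4 with chow they were 4.97 and 4.38 CPM, and under OO with ethanol 8.12, 6.78 and 2.30 CPM. All 3 libraries with both treatments were thus above every other library, and the next in order was the day 23 OO library with ethanol at 16.4 CPM.

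The CCl4 day 0 libraries held 3.51 and 13.2 CPM of Prom1, the OO day 0 libraries 2.20 and 1.28 CPM. OO with chow had 2.13 CPM at day 20 and 2.27 CPM at day 23. By group mean the order was CCl4 with ethanol (62.2 ± 19.4 CPM, SD, n = 3), the day 23 library of OO with ethanol, CCl4 before feeding at day 0 (8.33 ± 6.82, n = 2), OO with ethanol of day 20 (5.74 ± 3.05, n = 3), CCl4 with chow (4.68 ± 0.419, n = 2), OO with chow at day 23 and at day 20, and OO at day 0 (1.74 ± 0.654, n = 2). From CCl4 at day 0 down to CCl4 with chow, neighbours overlapped between their libraries, and the day 20 chow value lay within the range of OO at day 0. The gene lies at chr5:43993620-44102032 on the minus strand of mm10. It overlaps Gm16401 on the opposite strand and Gm42716 on its own. Neither has a row in the count tables, and whether the counting used strand is not given in the sources used here, so reads of these transcripts could not be told from those of Prom1.

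The comparison of CCl4 with OO livers under ethanol at day 20 asks what CCl4, given before and during feeding, adds when both arms receive ethanol. Prom1, Cftr and Epcam were higher in CCl4 livers, none of the 8 was lower, and the other 5 did not pass the test. Prom1 rose by a log2 change of 3.43 ± 0.49 (SE), or 10.8-fold (adjusted p = 0.000663). Cftr rose by 3.47 ± 0.67, or 11.1-fold (adjusted p = 0.00361), and Epcam by 1.37 ± 0.41, or 2.59-fold (adjusted p = 0.0311). Adjusted p-values come from the quasi-likelihood test of edgeR, adjusted by Benjamini and Hochberg's method over all genes tested, and a gene is called at an adjusted p under 0.05. In this comparison 23.7% of all genes were called, 12.7% higher and 11.0% lower and the 3 of 8 higher calls are to be read against that share. The median log2 change was 1.26 over the 8 genes and -0.04 over all genes. The CCl4 and OO libraries compared here shared no sequencing lane, so lane and CCl4 cannot be told apart within them.

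Cftr rested on few reads: 1, 3 and 0 counts in OO livers with ethanol (0.0991, 0.157 and 0 CPM) and 40, 15 and 9 counts in CCl4 livers with ethanol (1.69, 0.919 and 0.757 CPM). The groups did not overlap, and Cftr was called in all 14 alternative settings, with adjusted p from 0.00185 to 0.0192. Epcam held 2.38, 0.783 and 1.15 CPM in OO livers with ethanol and 4.34, 2.70 and 3.70 CPM in CCl4 livers with ethanol. These groups did not overlap either, but the lowest CCl4 library was only just above the highest OO library. Epcam was no longer called without library 14, 15, 18 or 20, or when only the compared libraries were fitted, with adjusted p up to 0.111.

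Cd24a and Krt23 lay close to the threshold. Cd24a was at 6.04, 3.65 and 2.83 CPM in OO livers and 9.70, 7.23 and 10.6 CPM in CCl4 livers (log2 change 1.15 ± 0.39, adjusted p = 0.0531). Krt23, a keratin that is low in healthy liver, was at 0.0991, 0.678 and 0 CPM against 1.86, 0.797 and 1.09 CPM (log2 change 1.99 ± 0.71, adjusted p = 0.0640). Neither gene overlapped between the groups, and DESeq2 and limma-voom called both. In all, 6 of 8 genes lay in every CCl4 library above every OO library, as did 18.8% of all genes.

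The duct keratins Krt19 and Krt7 and the factor Sox9 did not pass the test. Krt19 was at 4.56, 2.56 and 2.83 CPM in OO livers with ethanol and 3.04, 3.19 and 2.52 CPM in CCl4 livers with ethanol, with a log2 change of -0.16 and a 95% interval from -1.28 to 0.95. Krt7 was at 0.693, 1.41 and 1.33 CPM against 1.65, 1.53 and 1.94 CPM, so its groups did not overlap, by a narrow margin (log2 change 0.53, interval -0.40 to 1.47). Sox9 differed by 0.56 (interval -0.11 to 1.24). Differences between the changes of these genes and those of Prom1, Cftr or Epcam were not tested.

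**Figure D2:**
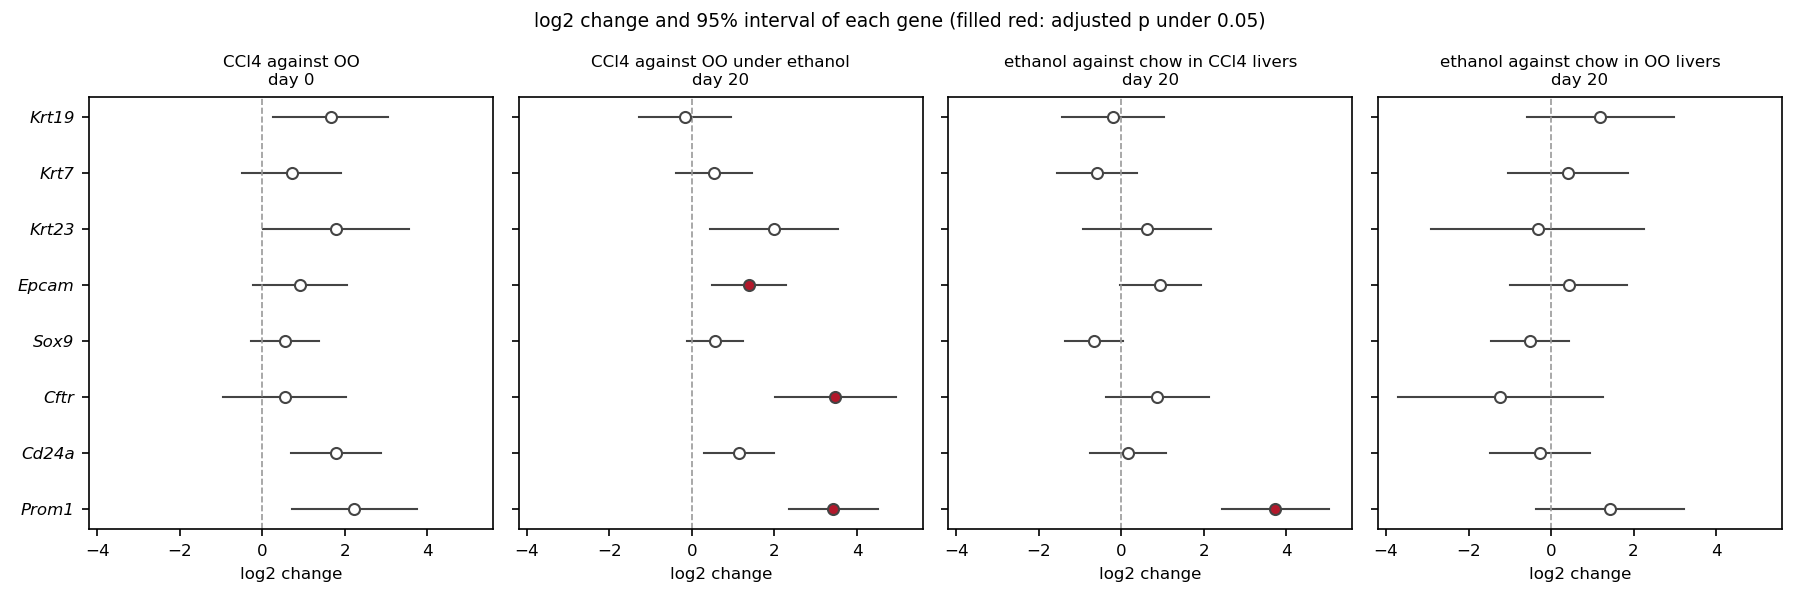
log2 change (horizontal axis) of each of the 8 genes with its 95% interval, in 4 comparisons. Filled red points have an adjusted p under 0.05: Prom1, Cftr and Epcam for CCl4 against OO under ethanol, and Prom1 alone for ethanol against chow in CCl4 livers.

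When ethanol was compared with chow among CCl4 livers, Prom1 alone of the 8 was called. It rose 13.3-fold, by a log2 change of 3.73 ± 0.59 (adjusted p = 0.0134). Here 1.27% of all genes were called and 0.501% were called higher. Without library 16 or library 17, which leaves 1 chow library, Prom1 was no longer called, and the reason was not tested. Its log2 change stayed between 3.46 and 3.91 over all alternatives. Epcam (log2 change 0.94, interval -0.03 to 1.92) and Cftr (0.86, interval -0.38 to 2.11) also lay above the chow libraries in every ethanol library and were not called. These 3 of 8 compare with 13.1% of all genes.

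The remaining genes gave no call under ethanol in CCl4 livers, and their values show where 1 library weighed. Sox9 was at 8.63 and 4.51 CPM under chow and 4.64, 2.64 and 5.13 CPM under ethanol (log2 change -0.67, interval -1.38 to 0.05). Krt7 was at 1.17 and 3.92 CPM under chow and 1.65, 1.53 and 1.94 CPM under ethanol. The higher chow value, in library 17, was the highest of all 15 libraries. Without library 17 the Krt7 change turned from -0.59 to 0.56, and that of Krt19 from -0.21 to 0.77. Library 17 also held the highest summed level of 9 mesothelium genes, 85.9 CPM against 8.41 to 43.1 CPM in the other libraries. All 9 had negative fitted changes for ethanol against chow in CCl4 livers, with a median log2 change of -1.02, and none was called. The part of mesothelium in the keratin values was not tested. Cd24a differed by 0.16 (interval -0.76 to 1.07) and Krt23 by 0.62 (interval -0.94 to 2.18).

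In OO livers at day 20 none of the 8 genes was called for ethanol against chow, by edgeR, DESeq2 or limma-voom, and by edgeR none had an unadjusted p under 0.05. Overall 3.64% of genes were called. The chow arm was library 12 alone, which has no spread of its own and was assumed to vary like the other groups. Its 22 acinar pancreas genes summed to 212 CPM, against 8.19 to 14.6 CPM in OO livers with ethanol. The part of pancreas RNA in its levels of the 8 genes was not tested. Prom1 had the largest change, 1.43 with an interval from -0.37 to 3.23. With the day 23 chow library in place of library 12, Epcam turned from 0.43 to -0.34 and Cd24a from -0.27 to 0.32, so no direction is given for them. The difference between the ethanol effects in CCl4 and OO livers, the interaction, was not called for any of the 8 genes by edgeR, DESeq2 or limma-voom, among 0.0135% of all genes called by edgeR. Prom1 alone had an unadjusted p under 0.05 in it, with a log2 difference of 2.30 (interval 0.13 to 4.47, adjusted p = 0.559). A larger ethanol effect on Prom1 in CCl4 than in OO livers is therefore not shown at this number of libraries.

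The same single library also served as the control in another pair of comparisons. CCl4 with ethanol against OO with chow at day 20 called Prom1, at 29.0-fold (log2 change 4.86 ± 0.89, adjusted p = 0.0159), among 2.80% of all genes called and 1.12% called higher. Prom1 stayed called with library 5 in place of library 12 and with both chow libraries pooled, and pooling also brought Cftr past the threshold (log2 change 2.24 with library 12 alone, adjusted p = 0.221). CCl4 against OO under chow called none of the 8 by edgeR, DESeq2 or limma-voom, and 0.189% of all genes. Krt7 alone had an unadjusted p under 0.05 in edgeR's test there (log2 change 1.55, interval 0.05 to 3.04), and it is the gene that was high in library 17. All 8 changes were positive, from 0.72 for Cd24a to 1.55. So were those of all 9 mesothelium genes, with a median log2 change of 0.79, and their part in these values was not tested. These comparisons share libraries with those above, so their values are not separate evidence.

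At day 0, after CCl4 alone, edgeR called none of the 8 genes, although all 8 fitted changes were positive. Of all genes, 2.06% were called. The median log2 change of the 8 was 1.28, against 0.01 over all genes, and 4 of them had an unadjusted p under 0.05. DESeq2 called Cd24a and Prom1, beside 729 of 19833 genes, and limma-voom called none of the 8. Prom1 changed by 2.23 ± 0.69 (adjusted p = 0.119), Cd24a by 1.79 ± 0.50 (adjusted p = 0.0884), Krt23 by 1.79 ± 0.81 (adjusted p = 0.290) and Krt19 by 1.65 ± 0.64 (adjusted p = 0.213).

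The CCl4 libraries at day 0 differed from each other. Krt19 was at 3.00 CPM in library 3 and 10.4 CPM in library 4, against 3.03 and 1.20 CPM in OO livers. Cd24a was at 5.01 and 15.6 CPM, against 3.49 and 2.40 CPM. For both genes, as for Prom1, library 4 was far above library 3, and library 3 was near or within the OO values. Krt23 had the opposite order, 2.44 CPM in library 3 and 1.68 CPM in library 4, against 0.550 and 0.639 CPM in OO livers. In all 6 genes lay in both CCl4 libraries above both OO libraries, where 30.5% of all genes did. Without library 4 no gene of the 8 had an unadjusted p under 0.05, and without library 3 Cd24a was called. The mesothelium genes summed to 16.1 CPM in library 4 and 43.1 CPM in library 3, so library 4 was not the higher of the pair. Between CCl4 and OO at day 0, however, all 9 mesothelium genes had positive fitted changes. Their median log2 change was 0.96, and none was called. The part of mesothelium in the day 0 values of the 8 genes was not tested.

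Between day 0 and day 20 of CCl4 with chow none of the 8 genes was called by edgeR, DESeq2 or limma-voom, by edgeR none had an unadjusted p under 0.05, and 11.5% of all genes were called. Krt23 was the single gene whose libraries did not overlap, at 2.44 and 1.68 CPM before and 0.512 and 1.13 CPM after (log2 change -1.33, interval -2.99 to 0.34). The Prom1 change was -0.79 (interval -2.11 to 0.53), and without library 4 it turned to 0.41.

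Other genes of the biliary epithelium, a list of 30 with 27 tested, were called most often for CCl4 against OO under ethanol: 12 higher and none lower by edgeR, beside the 12.7% and 11.0% of all genes. DESeq2 called 12 higher and 1 lower, limma-voom 11 and none, and 14 had an unadjusted p under 0.05 in edgeR. The median log2 change was 0.79. Spp1, which encodes the secreted matrix protein osteopontin, rose 9.06-fold from 55.4 ± 15.4 to 502 ± 114 CPM (SD, n = 3 each, adjusted p = 0.000765). It is also made by macrophages. Bicc1, an RNA-binding protein whose loss gives cystic kidneys, rose 2.93-fold (adjusted p = 0.000307), Alcam, an adhesion molecule, 2.04-fold (adjusted p = 0.00174), and Pkhd1, the fibrocystin of duct cilia, 1.71-fold (adjusted p = 0.00177).

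The keratins Krt8 and Krt18, which hepatocytes share, had log2 changes of -0.31 and -0.12 and were not called, and reads of Krt8 may also fall on a processed copy in the genome.

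The list had few calls elsewhere. Tff3, a mucosal peptide, was called in 5 comparisons and set itself apart by direction. It was higher with CCl4 at day 0 (log2 change 1.90, adjusted p = 0.0140), a call lost without any 1 of the 4 libraries, and lower with ethanol, by -3.29 in CCl4 livers and by -3.60 in OO livers (adjusted p = 0.00101 and 0.00150, the latter 0.109 when only the compared libraries were fitted). It fell by 3.80 for CCl4 with ethanol against OO with chow (adjusted p = 0.000456) and by 1.89 between day 0 and day 20 of CCl4 with chow (adjusted p = 0.00584, and 0.0614 without library 4). Wfdc2, a secreted protein of epithelia, rose 4.60-fold for CCl4 with ethanol against OO with chow (adjusted p = 0.0262), and Cys1, a protein of cilia, rose 6.84-fold with ethanol in OO livers (adjusted p = 0.0371). The Wfdc2 call was lost without library 18 or 20. That of Cys1 was lost without library 14 or 15, with library 5 as the control, and by DESeq2 and limma-voom. It was also absent when only the compared libraries were fitted. Cys1 was at 0.237 CPM in the control library 12 and at a mean of 1.66 CPM in OO livers with ethanol at day 20. Without ethanol, OO livers had 0.642 to 1.28 CPM at day 0 and 1.105 CPM in library 5. Elf3, Bicc1 and Spp1 were higher at day 20 than at day 0 of CCl4 with chow, by log2 changes of 3.09, 0.93 and 1.97 (adjusted p = 0.0216, 0.0273 and 0.0402), and without library 3 or 4 none of the 3 was called. In that comparison 7.27% of all genes were called higher and 4.20% lower. Genes of other cell types moved with them: all 12 macrophage genes (median log2 change 1.60), all 12 neutrophil genes (4.78) and 5 of 13 stellate genes (0.79) were called higher, and their part in the levels of Spp1 and the others was not tested. For CCl4 against OO under chow, and for the interaction, none of the list was called by edgeR, DESeq2 or limma-voom. In edgeR 8 and 4 of them had an unadjusted p under 0.05. With library 5 as the chow control, 2 were called higher for CCl4 under chow, as were 1.71% of all genes, and 5 for CCl4 with ethanol against OO with chow, as were 3.83%. With both chow libraries pooled 10 were called higher for the latter, as were 5.95% of all genes.

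**Figure D3:**
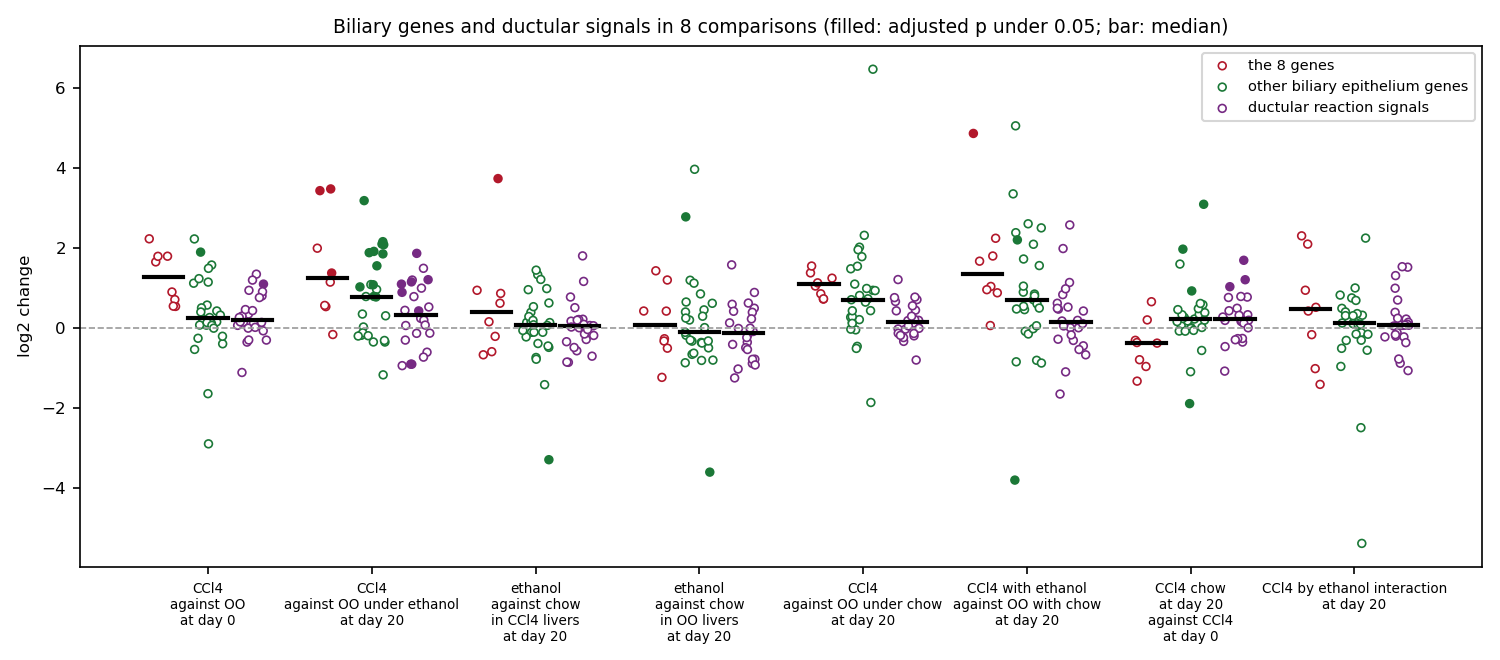
log2 change (vertical axis) of the 8 genes, 27 other biliary genes and 24 ductular signals in 8 comparisons (horizontal axis). Filled points have an adjusted p under 0.05 and bars are medians. Filled points of other biliary genes gather in the comparison of CCl4 with OO under ethanol, and their filled points below 0, in 4 comparisons, are Tff3.

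Signals known to act on duct cells, a list of 25 with 24 tested, gave 6 higher and 2 lower calls for CCl4 against OO under ethanol, beside 12.7% and 11.0% of all genes, so the share of lower calls was near that of all genes. Their median log2 change was 0.34. The higher calls numbered 3 without library 15, where 1345 of 14772 genes were called higher. Without library 13 they numbered 10, where 1910 of 14771 genes were called higher. Hgf, a growth factor of liver epithelium, rose 2.22-fold (adjusted p = 0.00115), and Axl, a receptor kinase, 1.86-fold (adjusted p = 0.00337). Tnfrsf12a, the receptor of TWEAK, a mitogen of duct-like cells, rose 2.14-fold (adjusted p = 0.0201). Jag1, the Notch ligand whose loss in Alagille syndrome leaves few bile ducts, rose 1.35-fold with an adjusted p of 0.04998, just under the threshold. Notch2, its receptor in bile duct formation, changed by 0.20 (interval -0.08 to 0.48). Met, the receptor of HGF, fell by 0.90 on the log2 scale (adjusted p = 0.000569), and Amotl2, a partner of the YAP pathway, fell by 0.90 (adjusted p = 0.00322).

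Outside that comparison the signals were seldom called. Dll4, a Notch ligand of endothelium, was higher with CCl4 at day 0 (log2 change 1.10, adjusted p = 0.0478), and it was not called by limma-voom or without any 1 of the 4 libraries. Axl, Hgf and Tnfrsf12a were higher at day 20 than at day 0 of CCl4 with chow, by 1.21, 1.03 and 1.69 (adjusted p = 0.00545, 0.0148 and 0.0200), and none of the 3 was called without library 3 or 4. The counts of macrophage, neutrophil and stellate genes given for the biliary list hold for this comparison too, and their part in these signals was not tested. In the 5 other comparisons edgeR called none of them, with 2 to 5 at an unadjusted p under 0.05. In those, DESeq2 called 1 higher and 1 lower for ethanol in OO livers and 2 higher for CCl4 with ethanol against OO with chow, and limma-voom called none.

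Genes of other cell types changed in the same comparison in which Prom1, Cftr and Epcam rose. For CCl4 against OO under ethanol, 10 of 12 neutrophil genes, 8 of 12 macrophage genes and 9 of 13 genes of stellate cells and myofibroblasts were called higher, beside 12.7% of all genes, and 1 macrophage gene, Timd4, lower. The summed level of the stellate list was 1293 to 1848 CPM in CCl4 and 485 to 663 CPM in OO livers with ethanol, and that of the macrophage list 1948 to 2341 against 774 to 1017 CPM. Most of the neutrophil sum in these groups was Lcn2, a gene that injured hepatocytes also express, which was not called and overlapped, at 789 to 1801 and 567 to 1365 CPM. The other 11 neutrophil genes summed to 69.1 to 197 CPM in CCl4 and 14.9 to 27.3 CPM in OO livers with ethanol and did not overlap. None of the stellate or macrophage genes was at 0 in any library of either group. Acinar pancreas genes summed to 6.31 to 8.27 CPM in CCl4 and 8.19 to 14.6 CPM in OO livers with ethanol. The part of these cell types in the levels of the 8 genes was not tested. When libraries 6 and 12 were left out of the fit, the 3 calls were again Prom1, Cftr and Epcam.

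At day 0 the lists moved differently. Of the 12 neutrophil genes Lcn2 alone was called, lower in CCl4 livers, at 4.55 to 8.58 CPM against 277 to 1174 CPM. The other 11 summed to 8.90 to 17.5 CPM in CCl4 and 13.4 to 34.6 CPM in OO livers, which overlapped. The B cell sum was 19.2 CPM in both CCl4 libraries and 6.24 to 10.4 CPM in OO livers, and the stellate sum 880 to 1040 against 442 to 600 CPM. Their part in the values of Cd24a, which blood cells also make, was not tested.

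**Figure D4:**
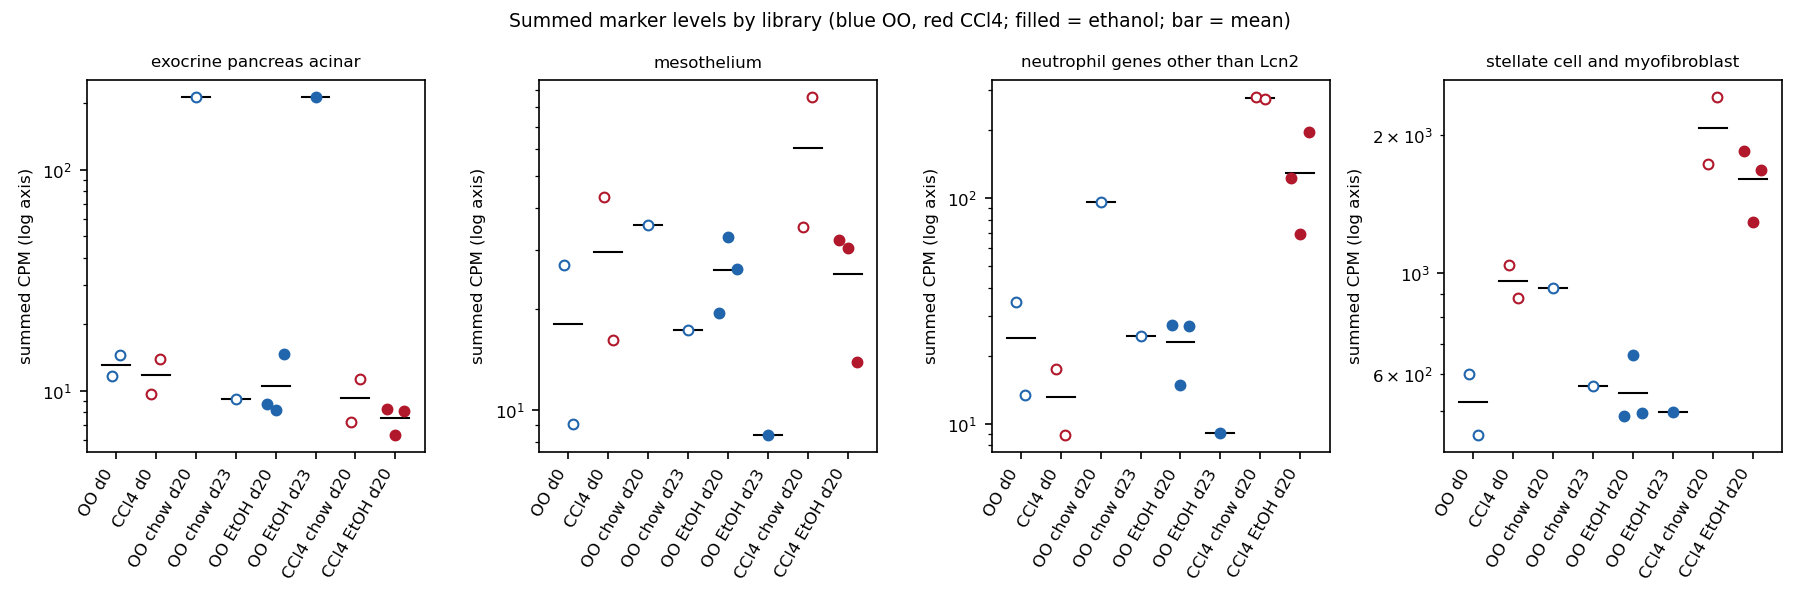
Summed CPM (vertical axis, log scale) of 4 marker lists by group (horizontal axis). Points are libraries and bars are group means. The pancreas list stands at 213 and 212 CPM in libraries 6 and 12, the mesothelium list is highest in a CCl4 chow library at 85.9 CPM, and the 11 neutrophil genes other than Lcn2 are highest in the CCl4 chow libraries, at 274 and 281 CPM.

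Across the 15 libraries the 8 genes varied together only in part. Over their 28 pairs Pearson's r of log2 CPM ran from -0.13 for Sox9 with Prom1 to 0.79 for Epcam with Cd24a, with a median of 0.45, and 1 pair was below 0. The points share libraries, treatments and depth, and low counts add noise to each. For Epcam the tested genes with the highest r were Tspan8 (0.89), Plch1 (0.88), Vil1 (0.87), Ehf (0.85) and Kcnj8 (0.85). Tspan8 and Ehf are also on the list of biliary genes and Vil1 on that of intestinal epithelium. Plch1 and Vil1 had medians of 0.354 and 0.325 CPM, so their r rests on few reads. For Prom1 they were Slc7a4, Cdhr2, Abhd2, Tm4sf4 and Ly6d, with r from 0.88 to 0.89.

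For Krt19 the closest genes were Cttnbp2, Slc26a3, Fcamr, Clic6 and Grhl2 (r 0.80 to 0.86). Their medians were only 0.066 to 0.67 CPM, so these r rest on few reads. For Cd24a the closest were Ralgds, Enah, Pcdhga3, Map3k12 and Akr1b8 (0.89 to 0.92). For Krt7 they included Fam92a, Lims1, Far1 and Tmod3 (0.85 to 0.89), and for Sox9 they were Pglyrp2, Tex10, Ppp1r9a, Amica1 and Vcl (0.82 to 0.89). No gene appeared in more than 1 of these 6 sets. Krt23 and Cftr, with medians under 1 CPM, were left out, but the closest genes were not held to that level.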

How the data were processed

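The labels' protocols name the Illumina TruSeq mRNA kit. Raw counts per gene symbol were deposited, from reads aligned with GSNAP to mm10, per the submitters' processing notes, which also name DESeq2 1.12.3. Not given in the sources used here are the counting program, the annotation and whether strand was used. The tables also hold 5 entries without a gene, with 47.0% to 58.6% of the reads listed, which were left out. Reads not unique, 18.1% to 28.8%, were not counted for genes.

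After TMM scaling and the filterByExpr filter, edgeR 4.0.16 (R 4.3.3) fitted 1 mean for each of 8 groups (7 residual degrees of freedom). All genes were tested by its quasi-likelihood test with Benjamini-Hochberg adjustment, after the script was tested on simulated data. A prior count of 2 was added for correlations. CPM per kb used exon lengths of GENCODE M21.

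The 8 genes, the lists and the tests were chosen with earlier results of these data known. All 8 genes are named in every comparison. From the lists, up to 4 called genes with the smallest adjusted p and Krt8, Krt18, Spp1, Tnfrsf12a, Jag1 and Notch2 are named. Some other genes that these rules select are not reported here. Timd4 and Lcn2 were named, and Lcn2 summed apart from the other neutrophil genes, after their values were seen, and so were the genes of the correlation sets that are on other lists. Alternatives were RLE scaling, other filters, DESeq2 1.42.0, limma-voom (limma 3.58.1) with and without lane, fits on fewer libraries, other chow controls, levels without TMM scaling, and each library left out. Erythroid and intestinal genes were summed too: erythroid sums were 38.4 to 196 CPM and intestinal sums 23.7 to 51.4 CPM.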

Additional observations from a re-analysis of the deposited data

Results flagged for a closer look

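In the single OO library with ethanol at day 23, library 6, which enters no tested comparison, Prom1 stood at 16.4 CPM from 436 counts. The exact 95% Poisson interval of this level, 14.9 to 18.1 CPM, lies above those of the OO chow libraries, which are 1.58 to 3.16 CPM at day 23 (2.27 CPM, library 5) and 1.41 to 3.10 CPM at day 20 (2.13 CPM, library 12). The intervals cover counting error only, and with 1 library a group there is no test of ethanol. The ratio of library 6 to library 5 was 7.23 for Prom1. Sox9 ran the other way, at 0.981 against 5.52 CPM, its lowest level in the 15 libraries. Library 6 is also 1 of the 2 in which acinar pancreas genes were high, at a sum of 213 CPM. Library 12 had a like sum, 212 CPM, and 2.13 CPM of Prom1.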

How the results depend on the processing

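The number of the 8 genes called was recomputed in 103 alternative settings over 8 comparisons and stayed within 1.5 times in 93. In several comparisons none of the 8 was called to begin with, and staying at 0 was counted as unchanged. Those settings could not show a lost call. A fall from 3 to 2, or an exchange of 1 called gene for another, was counted as unchanged too. For CCl4 against OO at day 0, where none was called, DESeq2 called 2, beside 729 of 19833 genes. A fit of only the compared libraries called 3 of the 7 that it tested, beside 2240 of 13047 genes. For CCl4 against OO under ethanol, 5 were called in place of 3 with no filter, DESeq2, and limma-voom with or without lane. These settings called 3260 to 3660 of the 14778 to 19833 genes tested. For ethanol in CCl4 livers the count was 0 to 1 when 1 library was left out. For CCl4 with ethanol against OO with chow it was 2 with both chow libraries pooled, beside 1576 of 14778 genes. Of 817 log2 changes of the 8 genes, 764 kept their direction and call, 18 became called, 7 lost the call and 28 turned; the cause was not tested. DESeq2 gave Cftr no adjusted p in 4 of the comparisons. Over all genes the calls moved more: from 304 to between 52 and 2240 for CCl4 at day 0, from 3509 to 2223 and 3981 for CCl4 under ethanol, from 187 to 49 and 416 for ethanol in CCl4 livers, from 538 to 16 and 1554 for ethanol in OO livers, from 28 to 11 and 378 for CCl4 under chow, from 414 to 137 and 1576 for CCl4 with ethanol against OO with chow, from 1694 to 262 and 2355 for day 20 against day 0, and from 2 to 0 and 148 in the interaction.

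With day 23 library 5 as the chow control, ethanol in OO livers gave Epcam -0.34, Cd24a 0.32 and Notch2 0.024, and with both chow libraries pooled Epcam -0.022 and Cd24a 0.0029. The same settings gave Sox9 -0.42 and -0.20 for CCl4 with ethanol against OO with chow, and in the interaction Sox9 0.32 and 0.10 and, with library 5, Cd24a -0.16. Limma-voom with and without lane gave Cd24a 0.027 and 0.013 for day 20 against day 0.

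Leaving out 1 library in turn gave these ranges of log2 change for results that turned. At day 0 they were -0.062 to 0.33 for Krt8, -0.018 to 0.28 for Jag1, -0.0017 to 0.037 for Notch2 and -0.15 to 1.09 for Cftr. For CCl4 under ethanol the range was -0.33 to 0.13 for Krt19. For ethanol in CCl4 livers they were -0.093 to 0.27 for Krt18, -0.76 to 0.77 for Krt19, -1.20 to 0.56 for Krt7, -0.28 to 0.12 for Krt8, -0.045 to 0.091 for Jag1 and -0.052 to 0.21 for Notch2. For ethanol in OO livers they were -0.12 to 0.76 for Epcam, -2.87 to 0.16 for Krt23 and -0.20 to 0.022 for Notch2. For CCl4 under chow they were -0.10 to 0.21 for Notch2 and -0.30 to 1.59 for Spp1, and for CCl4 with ethanol against OO with chow -0.10 to 0.30 for Sox9. For day 20 against day 0 they were -1.92 to 0.17 for Krt19, -0.91 to 0.32 for Cftr, -0.93 to 0.71 for Cd24a, -1.49 to 0.41 for Prom1, -0.33 to 0.59 for Sox9 and -0.48 to 1.27 for Krt7. In the interaction they were -0.32 to 0.17 for Tnfrsf12a, -0.54 to 0.37 for Sox9 and -1.63 to 0.13 for Krt7.

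The labels link no library to another by animal, so no paired analysis was done. The sequencing lane is known only from the names of the deposited data, and the labels give no batch. No day 20 library of OO with ethanol shared a lane with one of CCl4 with ethanol. This difference thus has no value within a lane, and the limma-voom fit with lane does not supply one. Counts of 0 to 59 limit Krt7, Krt23 and Cftr.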
